A study of Mus musculus with 12 samples.

Results

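The genes described here encode the enzymes that make cholesterol and fatty acids, together with the proteins that switch this synthesis on and off or move sterols. They were taken as a list of 43 gene symbols, and 43 of 43 were found among the 24421 symbols of the count tables. The list holds 18 enzymes of sterol synthesis, 16 enzymes that make, desaturate, elongate or activate fatty acids, and 9 regulators and sterol transporters. RNA was measured in splenic CD8+ T cells, the cytotoxic lymphocytes, of C57BL/6 mice, an inbred strain. One group was treated with an inhibitor of EZH2 (EZH2i, n = 6 libraries) and the other with DMSO, the solvent (n = 6 libraries). EZH2 is a methyltransferase of histone H3 that acts in Polycomb repression. Neither the inhibitor's name nor its dose, the length of treatment or the age of the mice is given in the sources used here. The labels do not tie the libraries to separate mice or cultures, so a p-value measures only library-to-library spread, part or all of which may be technical.

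Cells build cholesterol from acetyl-CoA through mevalonate, isoprenoids, squalene and lanosterol, and they build fatty acids from the same acetyl-CoA through malonyl-CoA. Both routes are driven by the sterol regulatory element-binding proteins (SREBPs), membrane-bound transcription factors encoded by Srebf1 and Srebf2, which the escort protein Scap carries to the Golgi for cleavage when membrane sterol is low. When sterol is plentiful, the Insig proteins hold Scap back and liver X receptors turn on genes of sterol export. T cells raise lipid synthesis when they are activated and grow.

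Library totals ran from 19610258 to 31206228 counts in EZH2i and from 17215483 to 28092434 in DMSO. The library numbered 6 stood apart in each group: on the first principal component of all tested genes, which held 45.2% of the variance, EZH2i library 6 lay at 23.3 against -33.1 ± 3.01 (SD) for EZH2i libraries 1 to 5, and DMSO library 6 at 64.1 against 15.6 ± 3.92 for DMSO libraries 1 to 5. Counts of calls are given with and without number 6, and results without it are also given for some single genes. Levels are in CPM, counts scaled to a common library size with TMM factors. The 5 CD8 T cell markers summed to 3086 ± 439 CPM in EZH2i and 3732 ± 411 CPM in DMSO, with Cd8b1 the most abundant, and Cd8a (log2 fold change -0.30, SE 0.0528, adjusted p = 0.00129) and Cd3g (log2 fold change -0.37, SE 0.121, adjusted p = 0.0488) fell. The median log2 fold change of the 5 was -0.30. The mean was under 1 CPM for 5 of 6 B cell, 6 of 8 myeloid, 4 of 4 neutrophil and 6 of 6 erythroid markers, and for Cd4. The summed myeloid markers, led by Itgam, ranged from 6.44 to 18.6 CPM in EZH2i and from 4.29 to 10.8 CPM in DMSO, and the 4 NK cell markers from 6.66 to 12.2 CPM in EZH2i and from 3.76 to 4.94 CPM in DMSO, with Ncr1 under 1 CPM. The B cell markers, led by Cd79b, summed to 14.9 to 21.9 CPM in EZH2i and 19.2 to 25.2 CPM in DMSO, and the CD4 T cell markers to 23.8 to 34.8 CPM in EZH2i and 17.4 to 23.0 CPM in DMSO. The stromal markers summed to 61.2 to 184 CPM in EZH2i and 88.7 to 196 CPM in DMSO. Most of this was Pecam1, with a mean of 146 CPM in EZH2i and 163 CPM in DMSO. The mean was under 1 CPM for 4 of the 6, Col1a1, Col1a2, Col3a1 and Cdh5. Single markers that rose were Zbtb7b (log2 fold change 0.60, adjusted p = 0.00654), Itgam (1.28, 0.0112), Klrb1c (2.59, 8.77e-05) and Pdgfrb (2.92, 0.000266). In DMSO, Klrb1c ran from 0.389 to 1.37 CPM and Pdgfrb from 0.119 to 0.631 CPM, around the cutoff for low counts of 0.409 CPM. The rises of these 2 start from such low levels that their size is uncertain. For both, every EZH2i library lay above every DMSO library. The part of these marker changes in the results was not tested.

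Most of the lipid synthesis genes had lower transcript levels with EZH2i, by modest amounts, and a few fatty acid genes had higher ones. Of the 43 genes 9 fell and 2 rose at an adjusted p under 0.05 (edgeR's quasi-likelihood test, Benjamini-Hochberg adjustment over all 11727 tested genes). The 9 that fell are 20.9% of the list, against 6.05% of all tested genes called lower. The 2 that rose are 4.65% of the list, against 13.3% of all tested genes called higher. This list and those below were chosen with earlier results of these data known, so such shares are not independent support. Over all tested genes 68.7% of the calls were higher, a share of 83.8% under upper-quartile scaling. The log2 fold change, EZH2i against DMSO, lay below 0 for 33 of the 43 genes, against 6097 of all 11727 tested genes. Its median was -0.24 over the list and -0.01 over all tested genes. Lower calls were more frequent among abundant transcripts: 14 and 17 of the 43 genes lay in the third and the highest of 4 bins of mean level, where 7.88% and 11.7% of all tested genes were called lower. The EZH2i and DMSO libraries did not overlap for 5 genes that were lower, against 2.74% of all tested genes, and for 1 that was higher, against 7.50% (10.2% in either direction). The 1 that was higher was Fads3, also among the 2 that rose. It passed the filter on low counts through the EZH2i libraries alone, so it had to differ. In bulk RNA, fewer cells of a type and less RNA per cell cannot be told apart.

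**Figure D1:**
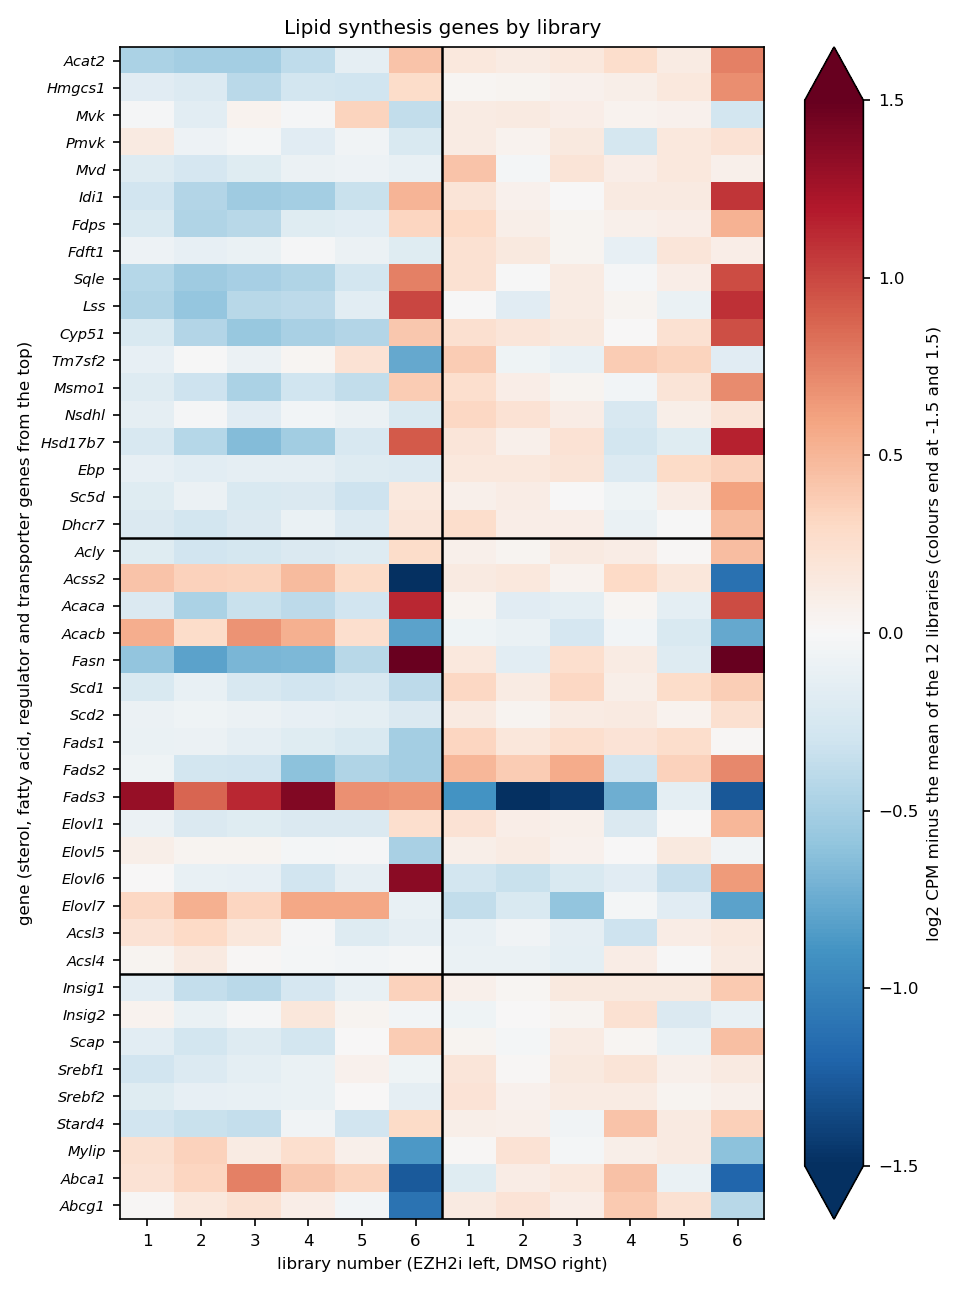
Rows are the 43 genes and columns the 12 libraries, EZH2i 1 to 6 left of DMSO 1 to 6, coloured by log2 CPM minus the gene's mean over the 12 libraries. Most sterol genes, in the top block, are bluer in EZH2i libraries 1 to 5 than in DMSO libraries 1 to 5, and the column numbered 6 departs from its neighbours in each group.

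The groups share the replicate numbers 1 to 6, and same-numbered libraries deviated together from their group means, most of all number 6 (correlation r of 0.847). Without number 6 the r ran from 0.0371 for number 5 to 0.341 for number 4. The pairing of numbers 1 to 5 is therefore not settled, and results by block or by pair depend on it. With the number as a block in the model, 29 of the 43 genes were called lower and 4 higher, which is 67.4% and 9.30% of the list, against 24.3% and 24.7% of all tested genes (49.0% in either direction). The 11 genes called without the block were among them, in the same direction. The adjusted p with the block is given below wherever it changes a call.

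Among the enzymes of sterol synthesis, 3 of 18 fell at the threshold (Mvd, Cyp51 and Ebp) and 0 rose, which is 16.7% lower against 6.05% of all tested genes. The log2 fold change lay below 0 for 18 of 18, against 6097 of all 11727 tested genes. It ran from -0.58 to -0.05 with a median of -0.32, beside -0.30 for the CD8 T cell markers. However, that of Mvk was 0.01 under upper-quartile scaling and without EZH2i library 6. With the block 15 of the 18 were called lower, against 24.3% of all tested genes. Without both libraries numbered 6 it was 14 of 18, against 20.9% of the genes tested there. Leaving out EZH2i library 6 alone also gave 14, against 15.4%. In 11 of the 18, or 61.1%, the EZH2i library was the lower of its same-numbered pair in 6 of 6 pairs, against 19.2% of all tested genes. The same held for 13 of 18 proliferation genes, or 72.2%, so it is not particular to sterol genes. Summed over the 18 genes, the level was 1104 ± 201 CPM in EZH2i and 1430 ± 266 CPM in DMSO (SD, n = 6 each). Over libraries 1 to 5 the sums did not overlap, with 965 to 1070 CPM in EZH2i and 1239 to 1410 CPM in DMSO.

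Log2 fold changes of the sterol genes thus lay on one side, and the letters before some of their start sites are shown for that reason. One-sided falls were not particular to them. Below 0 were also 18 of 18 proliferation genes, 10 of 11 genes of SREBP processing and turnover, 10 of 11 on the mevalonate branches and 13 of 15 of fatty acid oxidation. The promoters of those lists were not counted apart. Promoter windows of 250 bases before to 50 after a start came from RefSeq (build GRCm38.p6) and matched 35 of the 43 genes by symbol. They were searched on both strands for the sterol regulatory element TCACNCCAC, bound by SREBPs, the box CCAAT of the factor NF-Y, which acts with SREBPs on sterol genes, and the E-box CACGTG. The NF-Y box was found in 14 of 15 sterol genes (93.3%), 8 of 13 fatty acid genes (61.5%) and 5 of 7 regulators (71.4%), against 43.2% of the 8996 tested genes with a window. The sterol element was found in 1 of the 35, Hmgcs1, against 1.37% of the tested genes. Variant forms and sites outside the window were not searched, so a gene without a match may still have a sterol element. The E-box was found in 3 of 15 sterol genes, 1 of 13 fatty acid genes and 3 of 7 regulators, against 11.9% of the tested genes. A match describes letters and not a bound site. The stretches below end at the last base before the RefSeq start and read along the gene's strand. Hmgcs1 is shown for its sterol element, Mvd, Cyp51 and Ebp because they fell, and Idi1 and Fasn for the values described further on. Capitals mark the sterol element and the NF-Y box, which reads as its reverse complement where it lies on the other strand.
Hmgcs1, chr13:119690171-119690350, plus strand: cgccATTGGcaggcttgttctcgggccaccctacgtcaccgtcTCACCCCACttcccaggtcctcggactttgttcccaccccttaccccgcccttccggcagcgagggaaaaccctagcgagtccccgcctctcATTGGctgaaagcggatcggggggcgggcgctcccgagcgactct
Mvd, chr8:122443423-122443522, minus strand: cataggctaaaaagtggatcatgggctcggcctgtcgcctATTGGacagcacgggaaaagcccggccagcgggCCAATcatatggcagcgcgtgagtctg
Cyp51, chr5:4104698-4104797, minus strand: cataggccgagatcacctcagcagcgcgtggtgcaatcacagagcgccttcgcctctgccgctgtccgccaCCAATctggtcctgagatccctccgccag
Ebp, chrX:8193513-8193612, minus strand: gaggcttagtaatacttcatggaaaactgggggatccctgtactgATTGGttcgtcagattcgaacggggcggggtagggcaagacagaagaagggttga
Idi1, chr13:8885506-8885605, plus strand: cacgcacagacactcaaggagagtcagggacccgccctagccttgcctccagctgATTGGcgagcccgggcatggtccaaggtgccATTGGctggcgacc
Fasn, chr11:120824548-120824647, minus strand: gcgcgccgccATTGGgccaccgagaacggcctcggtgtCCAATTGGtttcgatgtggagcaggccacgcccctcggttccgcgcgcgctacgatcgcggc
Within the stretches shown and counted from the start, the sterol element of Hmgcs1 begins at -137, between NF-Y boxes at -176 and -45. Mvd has boxes at -60 and -27, Idi1 at -45 and -14, Cyp51 at -29 and Ebp at -55. In Fasn a box at -90 is followed by a pair on opposite strands that overlap, at -62 and -59.

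The first steps lead from acetyl-CoA to farnesyl diphosphate, the branch point to sterols and other isoprenoids. Acat2, a thiolase that joins acetyl-CoA units, had lowest, median and highest values of 16.4, 17.3 and 31.3 CPM in EZH2i, against 25.4, 26.0 and 39.4 CPM in DMSO (log2 fold change -0.50, SE 0.174, adjusted p = 0.0597, with the block 2.46e-05). Only EZH2i library 6 reached into the DMSO range. Its counts are uncertain, since the mouse has a close copy, Acat3. Hmgcs1, which makes hydroxymethylglutaryl-CoA, had 149, 168 and 239 CPM in EZH2i, against 202, 208 and 321 CPM in DMSO (log2 fold change -0.36, SE 0.137, adjusted p = 0.0831, with the block 3.70e-05). Library 6 was the highest of each group, and EZH2i was the lower of the pair in 6 of 6 pairs.

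Mvk, which phosphorylates mevalonate, averaged 29.0 ± 4.75 CPM in EZH2i and 30.1 ± 2.98 CPM in DMSO (log2 fold change -0.05, SE 0.112, adjusted p = 0.785). Pmvk, the next kinase, averaged 34.1 ± 2.95 CPM in EZH2i and 37.7 ± 4.20 CPM in DMSO (log2 fold change -0.15, SE 0.0904, adjusted p = 0.295). The groups overlapped for both kinases, and neither was called with the block. Mvd, the decarboxylase that yields isopentenyl diphosphate, fell, with 32.9, 35.5 and 37.3 CPM in EZH2i, against 38.4, 42.9 and 52.7 CPM in DMSO (log2 fold change -0.31, SE 0.0789, adjusted p = 0.0144). Every EZH2i library lay below every DMSO library. Under upper-quartile scaling the adjusted p of Mvd was 0.0502.

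Idi1, the isomerase of isopentenyl diphosphate, had 83.1, 92.1 and 172 CPM in EZH2i, against 122, 133 and 255 CPM in DMSO (log2 fold change -0.54, SE 0.218, adjusted p = 0.104, with the block 2.32e-07). EZH2i libraries 1 to 5 lay below every DMSO library, and EZH2i library 6 within the DMSO range. Fdps, which makes farnesyl diphosphate, had 113, 135 and 193 CPM in EZH2i, against 160, 165 and 222 CPM in DMSO (log2 fold change -0.36, SE 0.129, adjusted p = 0.0685, with the block 6.35e-05). Again only EZH2i library 6 reached the DMSO values.

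The later steps run from squalene to cholesterol. Fdft1, squalene synthase, averaged 68.5 ± 2.52 CPM in EZH2i and 78.5 ± 6.57 CPM in DMSO (log2 fold change -0.20, SE 0.0649, adjusted p = 0.0505, with the block 0.0137). Exons of Fdft1 overlap those of Ctsb on the opposite strand over 18.3% of their length, and the strand setting of the counting is not given in the sources used here, so its count is uncertain. Sqle, squalene epoxidase, had 55.3, 59.1 and 135 CPM in EZH2i, against 78.9, 86.5 and 158 CPM in DMSO (log2 fold change -0.43, SE 0.242, adjusted p = 0.239, with the block 1.05e-05). Lss, which closes the rings to lanosterol, had 25.6, 28.9 and 76.8 CPM in EZH2i, against 34.0, 38.9 and 81.8 CPM in DMSO (log2 fold change -0.28, SE 0.296, adjusted p = 0.572, with the block 0.00143). For Sqle and Lss library 6 was the highest of each group, and EZH2i was the lower of the pair in 6 of 6 pairs.

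Cyp51, the demethylase of lanosterol, fell, with 94.6, 104 and 186 CPM in EZH2i, against 141, 162 and 274 CPM in DMSO (log2 fold change -0.58, SE 0.191, adjusted p = 0.0476). EZH2i libraries 1 to 5 lay below every DMSO library, whereas EZH2i library 6, at 186 CPM, exceeded DMSO libraries 1 to 5. The adjusted p was close to the threshold, and with 1 library fewer the call was lost in 10 of 12 cases, over a range of adjusted p from 0.00172 to 0.121, and was kept without EZH2i library 6 or without DMSO library 4. The log2 fold change of Cyp51 stayed below 0 in all 12 cases, from -0.76 without EZH2i library 6 to -0.42 without DMSO library 6. Under upper-quartile scaling, without a filter and with a stricter filter its adjusted p was 0.0659, 0.0559 and 0.0542, and with the block 1.35e-07. Ebp, the isomerase that shifts a sterol double bond, fell, with 61.5, 63.9 and 65.1 CPM in EZH2i, against 61.6, 80.1 and 90.3 CPM in DMSO (log2 fold change -0.32, SE 0.0811, adjusted p = 0.0132). The EZH2i libraries lay close together, and only DMSO library 4 came down to them.

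The remaining enzymes remove methyl groups and set the final double bonds. Their log2 fold changes were -0.41 for Msmo1, a sterol methyl oxidase, -0.35 for Hsd17b7, a keto reductase, -0.30 for Sc5d, a desaturase, -0.28 for Dhcr7, a reductase of the last steps, and -0.23 for Nsdhl, a dehydrogenase. None of these 5 was called without the block, with adjusted p from 0.0794 for Nsdhl to 0.463 for Hsd17b7, and all 5 were called with it, from 1.92e-05 for Msmo1 to 0.0196 for Nsdhl. Without both libraries numbered 6 the adjusted p of Nsdhl was 0.0728. Tm7sf2, a sterol reductase, averaged 8.75 ± 1.79 CPM in EZH2i and 10.3 ± 1.88 CPM in DMSO (log2 fold change -0.24, SE 0.163, adjusted p = 0.336), and 12.1% of its exon length overlaps Vps51 on the same strand, which makes its count uncertain.

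**Figure D2:**
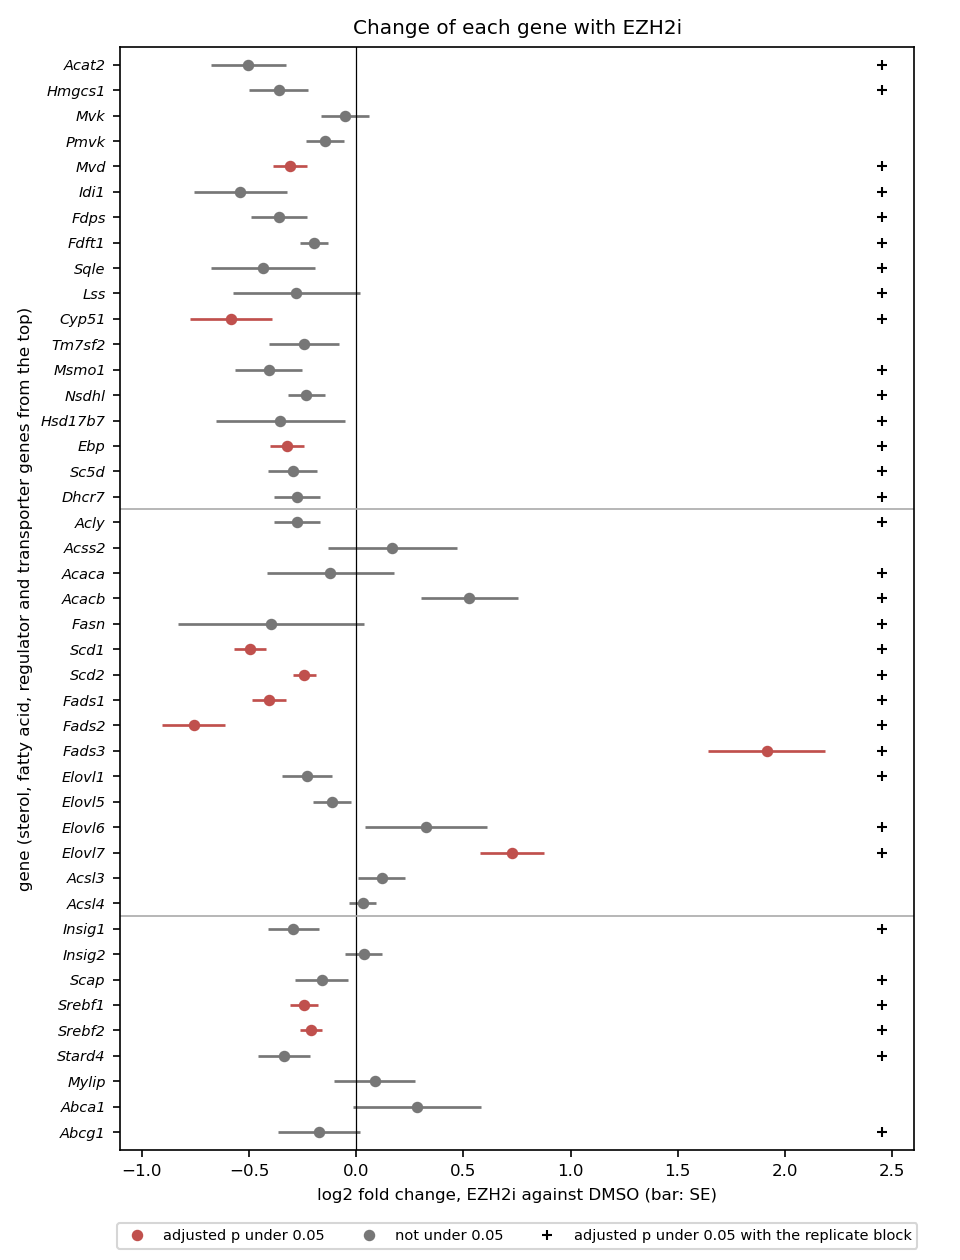
Points are log2 fold changes of the 43 genes, EZH2i against DMSO, with the SE as a bar, in red where the adjusted p is under 0.05, and plus signs at the right mark those under 0.05 with the replicate block. The 18 sterol genes in the top block all lie left of 0, 3 of them red and 15 with a plus sign, and Fads3 and Elovl7 are the red points right of 0.

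The 16 fatty acid enzymes moved in both directions. With EZH2i 4 fell and 2 rose, or 25.0% and 12.5%, against 6.05% and 13.3% of all tested genes, with a median log2 fold change of -0.12. The 4 that fell, Scd1, Scd2, Fads1 and Fads2, are desaturases, which place double bonds in fatty acids. With the block 8 were called lower and 4 higher, or 50% and 25.0%, against 24.3% and 24.7% of all tested genes. Without both libraries numbered 6 it was 8 lower and 5 higher, against 20.9% and 23.9% of the genes tested there. Without EZH2i library 6 alone it was 7 lower, against 15.4%. EZH2i was the lower of the pair in 6 of 6 pairs for 8 of the 16 and the higher for 2, against 19.2% and 21.2% of all tested genes. Summed over the 16 genes the level was 2193 ± 197 CPM in EZH2i and 2513 ± 254 CPM in DMSO, of which Scd2 made up 835 CPM in EZH2i and 988 CPM in DMSO. The mean log2 CPM of the 16, which weights the genes equally, was 5.70 ± 0.04 in EZH2i and 5.70 ± 0.07 in DMSO. That mean includes Fads3, among the 2 that rose, which passed the filter on low counts through the EZH2i libraries alone. Fads3 thus had to be higher in EZH2i, and the equal means do not show that the other fatty acid genes were unchanged.

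The enzymes that supply acetyl-CoA and turn it into palmitate did not pass the threshold without the block. Acly, which splits citrate to acetyl-CoA, had 239, 253 and 352 CPM in EZH2i, against 294, 310.2 and 401 CPM in DMSO (log2 fold change -0.28, SE 0.107, adjusted p = 0.0891, with the block 0.000178). Only EZH2i library 6 reached the DMSO range. Fasn, the fatty acid synthase, had 85.8, 96.7 and 420.3 CPM in EZH2i, against 132, 165 and 420.4 CPM in DMSO (log2 fold change -0.40, SE 0.433, adjusted p = 0.581, with the block 0.000203). The pair numbered 6 was level, at 420.3 CPM in EZH2i and 420.4 CPM in DMSO, while over libraries 1 to 5 the mean was 97.0 CPM in EZH2i and 155 CPM in DMSO. Whether number 6 differed from the other pairs in this was not tested. Without number 6 Fasn was called lower (log2 fold change -0.67, adjusted p = 1.05e-05).

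Acaca, the carboxylase that makes malonyl-CoA for synthesis, had 48.9, 54.9 and 149 CPM in EZH2i, against 60.3, 65.2 and 134 CPM in DMSO (log2 fold change -0.12, SE 0.297, adjusted p = 0.818, with the block 0.0288). EZH2i library 6 was the highest of the 12, and without DMSO library 6 the log2 fold change was 0.11. Acacb, the isoenzyme whose malonyl-CoA restrains fatty acid oxidation, had 1.33, 3.09 and 3.70 CPM in EZH2i, against 1.37, 2.08 and 2.26 CPM in DMSO (log2 fold change 0.53, SE 0.226, adjusted p = 0.123, with the block 0.0134). EZH2i libraries 1 to 5 lay above every DMSO library, and library 6 was the lowest of each group. Acss2, which makes acetyl-CoA from acetate, had 14.4, 54.0 and 59.3 CPM in EZH2i, against 19.7, 47.2 and 52.6 CPM in DMSO (log2 fold change 0.17, SE 0.301, adjusted p = 0.745). Its library 6 was far below the rest in each group, and without number 6 Acss2 was called higher (log2 fold change 0.21, adjusted p = 0.00982).

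Scd1 and Scd2, the stearoyl-CoA desaturases, make monounsaturated fatty acids. Scd1 fell, with 19.7, 21.8 and 23.9 CPM in EZH2i, against 27.3, 31.6 and 33.4 CPM in DMSO (log2 fold change -0.50, SE 0.0749, adjusted p = 0.000451). Scd2 fell, with 779, 842 and 869 CPM in EZH2i, against 931, 992 and 1075 CPM in DMSO (log2 fold change -0.24, SE 0.0536, adjusted p = 0.00611). The groups did not overlap for either. The genes lie close together on chromosome 19 of build GRCm38 (GENCODE M21), Scd2 at 44293674 to 44306864 and Scd1 at 44394455 to 44407879, and resemble each other in sequence, which makes the division of their reads uncertain. Per kilobase of exon, the level in CPM was 153 ± 5.87 in EZH2i and 181 ± 9.36 in DMSO for Scd2, the highest of the 43 genes in each group, and 4.44 ± 0.277 in EZH2i and 6.27 ± 0.496 in DMSO for Scd1.

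Fads1 and Fads2 are the front-end desaturases of polyunsaturated fatty acids, and Fads3 is a relative that acts on sphingoid bases. Fads1 fell, with 60.8, 77.7 and 81.1 CPM in EZH2i, against 87.4, 102 and 108 CPM in DMSO (log2 fold change -0.41, SE 0.0792, adjusted p = 0.00276). Fads2 had the most negative fold change of the 43 genes, with 36.9, 43.7 and 53.8 CPM in EZH2i, against 46.3, 76.6 and 93.0 CPM in DMSO (log2 fold change -0.76, SE 0.146, adjusted p = 0.00251). The groups did not overlap for Fads1, and for Fads2 only DMSO library 4 lay within the EZH2i range.

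Fads3 had 0.681, 0.865 and 1.13 CPM in EZH2i, against 0.147, 0.205 and 0.389 CPM in DMSO (log2 fold change 1.91, SE 0.273, adjusted p = 0.000298). Every EZH2i library lay above every DMSO library. It passed the filter on low counts through the EZH2i libraries alone (6 of 6 over the cutoff of 0.409 CPM, against 0 of 6 in DMSO), so it had to differ, and its rise is no support for the list. The Fads genes lie close together on chromosome 19, Fads3 at 10041569 to 10060110, Fads2 at 10062765 to 10101746 and Fads1 at 10182888 to 10196877. Per kilobase of exon, the level in CPM was 0.233 ± 0.0502 in EZH2i and 0.0599 ± 0.0238 in DMSO for Fads3, the lowest of the 43 genes in each group, 13.4 ± 1.85 in EZH2i and 22.6 ± 4.79 in DMSO for Fads2 and 15.7 ± 1.59 in EZH2i and 20.8 ± 1.49 in DMSO for Fads1.

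Among the elongases, which lengthen fatty acids, Elovl7 rose, with 17.1, 25.0 and 27.7 CPM in EZH2i, against 10.6, 15.0 and 18.2 CPM in DMSO (log2 fold change 0.73, SE 0.148, adjusted p = 0.00373). EZH2i was the higher of the pair in 6 of 6 pairs, and the groups overlapped only through EZH2i library 6 and DMSO library 4. Elovl6, which turns palmitate into stearate, had 86.1, 96.7 and 269 CPM in EZH2i, against 82.6, 87.9 and 164 CPM in DMSO (log2 fold change 0.33, SE 0.286, adjusted p = 0.479, with the block 0.0177). Library 6 was the highest of each group, and without EZH2i library 6 alone the log2 fold change was -0.05. Without both libraries numbered 6 Elovl6 was called higher (log2 fold change 0.15, adjusted p = 0.0467).

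Elovl1, an elongase of saturated very long chains, averaged 74.9 ± 10.6 CPM in EZH2i and 87.9 ± 14.8 CPM in DMSO (log2 fold change -0.23, SE 0.117, adjusted p = 0.199, with the block 0.00276). Elovl5, an elongase of polyunsaturated chains, averaged 307 ± 40.6 CPM in EZH2i and 332 ± 16.8 CPM in DMSO (log2 fold change -0.11, SE 0.0886, adjusted p = 0.421). The groups overlapped for both. The ligases Acsl3 and Acsl4 activate long-chain fatty acids. Acsl3 averaged 25.9 ± 3.58 CPM in EZH2i and 23.9 ± 2.83 CPM in DMSO (log2 fold change 0.12, SE 0.108, adjusted p = 0.502), and Acsl4 averaged 122 ± 5.46 CPM in EZH2i and 119 ± 9.77 CPM in DMSO (log2 fold change 0.03, SE 0.0641, adjusted p = 0.790). Neither ligase was called with the block.

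**Figure D3:**
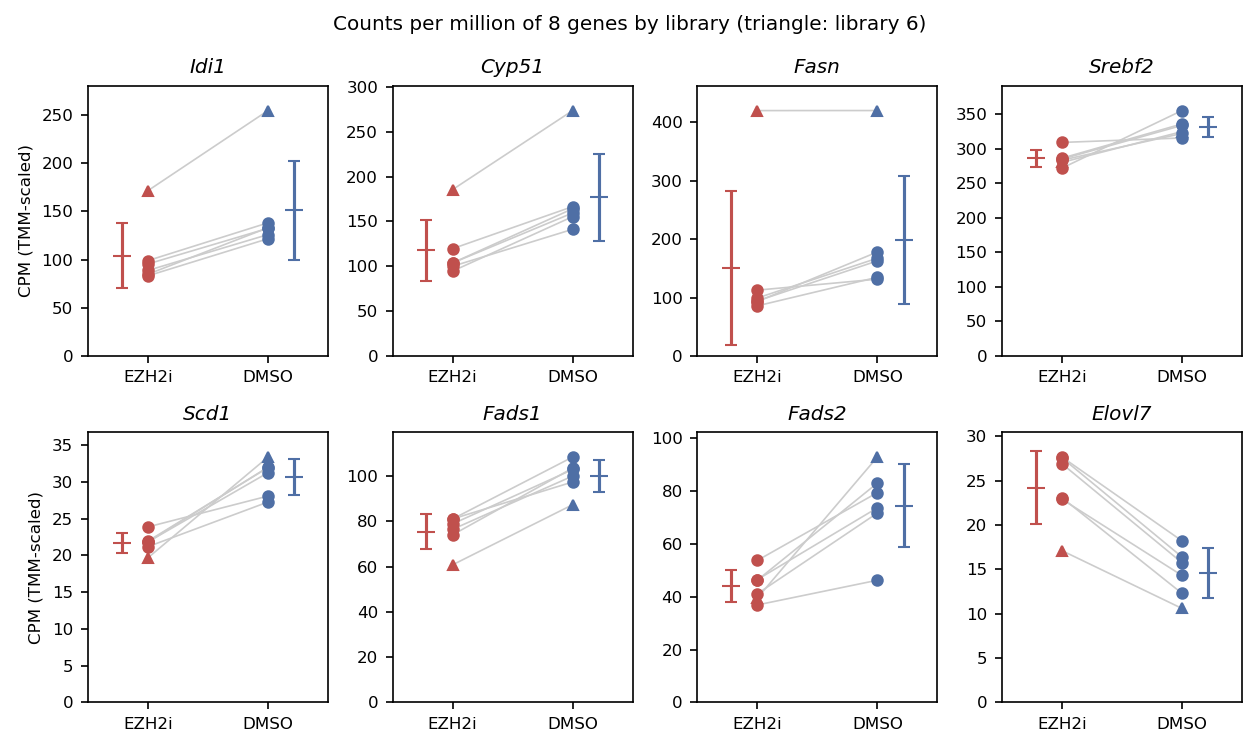
CPM of 8 genes by library, EZH2i left of DMSO, with same-numbered libraries joined by lines, triangles for library 6, and a bar of mean and SD beside each group (n = 6). Library 6 stands above the others for Idi1, Cyp51 and Fasn, whose pair is level at 420.3 CPM in EZH2i and 420.4 CPM in DMSO, while the groups are separate for Srebf2, Scd1 and Fads1.

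The transcription factors of the programme fell by small amounts. Srebf2, the main activator of sterol genes, had 272, 284 and 309 CPM in EZH2i, against 316, 329 and 355 CPM in DMSO (log2 fold change -0.21, SE 0.0524, adjusted p = 0.0122). Srebf1, whose products drive fatty acid genes, had 111, 124 and 141 CPM in EZH2i, against 137, 149 and 154 CPM in DMSO (log2 fold change -0.24, SE 0.0652, adjusted p = 0.0184). The groups did not overlap for Srebf2, and for Srebf1 only EZH2i library 5 reached the DMSO range. Under upper-quartile scaling the adjusted p was 0.0810 for Srebf2 and 0.0795 for Srebf1. They were the 2 called of the 9 regulators and transporters, or 22.2% lower against 6.05% of all tested genes, with 0 higher and a median log2 fold change of -0.17. With the block 6 of the 9 were called lower, or 66.7% against 24.3% of all tested genes. Without both libraries numbered 6 it was 5, against 20.9% of the genes tested there, and without EZH2i library 6 alone it was also 5, against 15.4%.

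The proteins that hold or escort the SREBPs were measured beside them. Insig1, a retention protein and itself an SREBP target, had 48.8, 55.9 and 82.3 CPM in EZH2i, against 65.9, 71.4 and 84.7 CPM in DMSO (log2 fold change -0.29, SE 0.119, adjusted p = 0.103, with the block 0.000748). Only EZH2i library 6 reached the DMSO range. Insig2, its relative, averaged 15.7 ± 1.04 CPM in EZH2i and 15.3 ± 1.66 CPM in DMSO (log2 fold change 0.04, SE 0.0868, adjusted p = 0.819). Scap, the escort, averaged 85.2 ± 16.3 CPM in EZH2i and 95.3 ± 13.9 CPM in DMSO (log2 fold change -0.16, SE 0.125, adjusted p = 0.414, with the block 0.0268). The groups overlapped for Insig2 and Scap.

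Stard4, a soluble carrier of cholesterol between membranes, had 48.6, 51.2 and 75.9 CPM in EZH2i, against 60.4, 67.4 and 84.0 CPM in DMSO (log2 fold change -0.34, SE 0.121, adjusted p = 0.0701, with the block 0.000179). EZH2i libraries 1 to 5 lay below every DMSO library. The last genes answer to liver X receptors. Abca1, an exporter of cholesterol, had 2.72, 8.22 and 11.0 CPM in EZH2i, against 2.86, 6.58 and 8.91 CPM in DMSO (log2 fold change 0.28, SE 0.299, adjusted p = 0.571, with the block 0.0508). Abcg1, another exporter, had 36.1, 80.8 and 90.5 CPM in EZH2i, against 57.8, 87.1 and 102 CPM in DMSO (log2 fold change -0.17, SE 0.193, adjusted p = 0.589, with the block 0.0376; without both libraries numbered 6 adjusted p = 0.166). Mylip, a ubiquitin ligase that marks lipoprotein receptors for degradation, averaged 18.1 ± 4.44 CPM in EZH2i and 17.0 ± 3.05 CPM in DMSO (log2 fold change 0.09, SE 0.187, adjusted p = 0.795). The groups overlapped for all 3, and library 6 was the lowest of each group.

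Number 6 was high for many sterol genes in both groups. It was the highest library of each group for 11 of the 18 sterol genes, or 61.1%, against 28.5% of all tested genes. For 7 of the 18, or 38.9%, it was at least 1.5 times the mean of libraries 1 to 5 in each group, against 11.7% of all tested genes. By the count of highest and lowest libraries, the other lists were near all tested genes. Library 6 was the highest of each group for 31.2% of the fatty acid genes and 22.2% of the regulators, and the lowest for 31.2% and 33.3%, against 28.5% highest and 31.0% lowest over all tested genes. It was at least 1.5 times the mean of libraries 1 to 5 in each group for 18.8% of the fatty acid genes and 0 regulators, against 11.7%. It was at or below that mean divided by 1.5 in each group for 12.5% of the fatty acid genes and 33.3% of the regulators, against 12.9%. Fasn stood at 4.33 times that mean in EZH2i and 2.71 times in DMSO. Lss stood at 2.63 times that mean in EZH2i and 2.16 times in DMSO, and Sqle at 2.27 times that mean in EZH2i and 1.86 times in DMSO. The sterol exporters were low in the same libraries. Abca1 stood at 0.312 times that mean in EZH2i and 0.407 times in DMSO, and Abcg1 at 0.436 times that mean in EZH2i and 0.643 times in DMSO. Acss2 was the lowest of the 43 on this measure in EZH2i, at 0.260 times that mean in EZH2i and 0.412 times in DMSO. Within number 6, 18 of 18 sterol genes were lower in EZH2i than in DMSO, against 52.5% of all tested genes. The labels do not say what the number stands for.

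**Figure D4:**
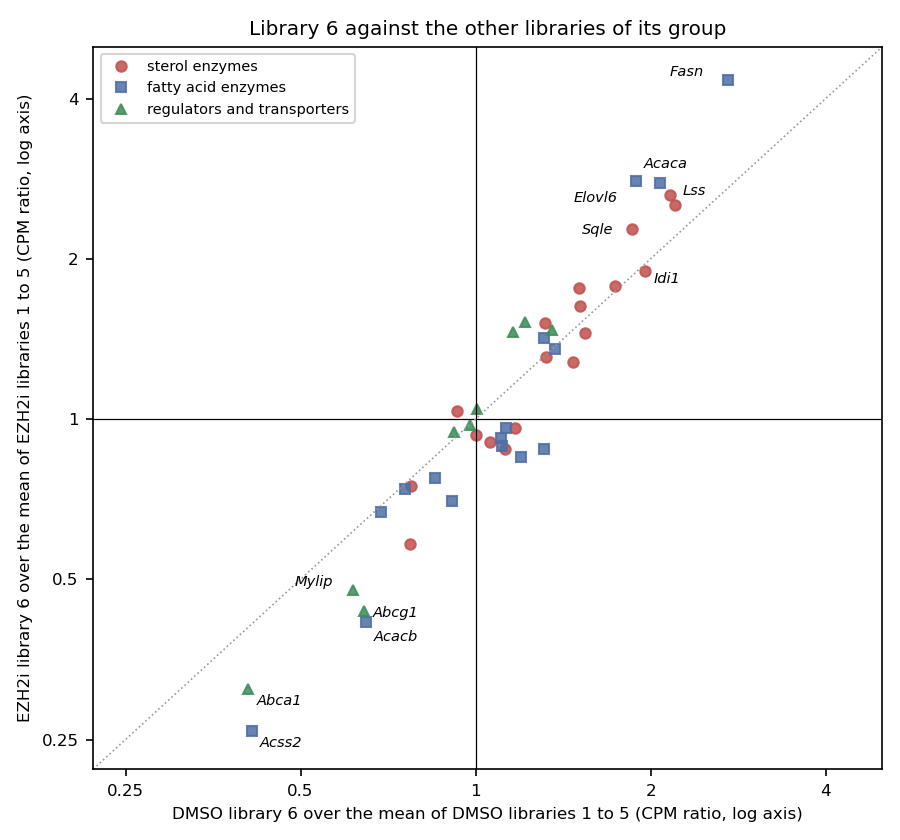
Each point is a gene, placed by the CPM of library 6 over the mean of libraries 1 to 5 in DMSO (horizontal, log axis) and in EZH2i (vertical, log axis), with a dotted line where the ratios are equal. Fasn is the furthest to the upper right, at 4.33 in EZH2i and 2.71 in DMSO, and Abca1 and Acss2 are at the lower left.

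Other genes of the pathway were counted by list. Of 11 genes of SREBP processing and turnover, 2 fell and 0 rose (18.2% lower against 6.05% of all tested genes, median log2 fold change -0.15), and 6 were called lower with the block (54.5%, against 24.3%). Rnf145, a sterol-responsive ubiquitin ligase, fell (log2 fold change -0.41, SE 0.0548, adjusted p = 0.000173), as did Rnf139, another ligase of the endoplasmic reticulum (log2 fold change -0.28, SE 0.0809, adjusted p = 0.0286). Of 11 genes on the mevalonate branches to dolichol, ubiquinone and prenylated proteins, 0 were called in edgeR's test, and 2 were called lower with the block (18.2%, against 24.3% of all tested genes). The smallest p there was that of Dhdds, a subunit of the dolichol-making enzyme (log2 fold change -0.12, SE 0.0533, adjusted p = 0.132). Of 16 genes of sterol transport and esterification, 1 rose and 0 fell (6.25% higher, against 13.3% of all tested genes). With the block 4 were called higher and 3 lower, or 25.0% and 18.8%, against 24.7% and 24.3%. The 1 that rose was Stard5, a sterol carrier (log2 fold change 0.41, SE 0.131, adjusted p = 0.0427).

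A further list held other genes of fatty acid synthesis and of related steps, ceramide synthesis among them. Of its 15 tested genes 2 rose and 1 fell, or 13.3% and 6.67%, near the 13.3% and 6.05% of all tested genes. With the block 5 were called higher and 6 lower, or 33.3% and 40.0%, against 24.7% and 24.3%. Hacd1, a dehydratase of the elongation cycle (log2 fold change 1.08, SE 0.334, adjusted p = 0.0371), and Cers6, a ceramide synthase (log2 fold change 0.74, SE 0.122, adjusted p = 0.000908), rose. Hacd1 was low in DMSO, from 0.55 to 2.20 CPM. Mid1ip1, which promotes the assembly of acetyl-CoA carboxylase, fell, averaging 29.8 ± 3.97 CPM in EZH2i and 42.9 ± 4.79 CPM in DMSO (log2 fold change -0.53, SE 0.101, adjusted p = 0.00251). Of 15 tested genes of fatty acid oxidation, the route that breaks fatty acids down, 3 fell and 0 rose, or 20.0% lower against 6.05% of all tested genes, and 9 were called lower with the block (60.0%, against 24.3%). They were Eci1, an enoyl-CoA isomerase (log2 fold change -0.36, SE 0.116, adjusted p = 0.0436), Acadm, a medium-chain dehydrogenase (log2 fold change -0.24, SE 0.0747, adjusted p = 0.0424), and Hadhb, a thiolase subunit (log2 fold change -0.21, SE 0.0644, adjusted p = 0.0345).

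Of 18 proliferation genes 5 fell and 0 rose, or 27.8% lower against 6.05% of all tested genes, and 14 were called lower with the block (77.8%, against 24.3%). Tyms, which makes thymidylate, averaged 66.1 ± 4.09 CPM in EZH2i and 98.7 ± 6.37 CPM in DMSO (log2 fold change -0.58, SE 0.0638, adjusted p = 4.28e-05). Pcna, the clamp of DNA replication (log2 fold change -0.39, SE 0.0722, adjusted p = 0.00190), Mcm5, a subunit of the replicative helicase (log2 fold change -0.32, SE 0.0704, adjusted p = 0.00601), and Rrm2, a subunit of ribonucleotide reductase (log2 fold change -0.30, SE 0.0700, adjusted p = 0.00958), were among the 5. The summed level of the 18 ranged from 6997 to 7582 CPM in EZH2i and from 8243 to 8899 CPM in DMSO, without overlap. Library 6 was the highest of each group for 6 of the 18 and the lowest for 8. Mcm2, a helicase subunit, had 366 CPM in EZH2i library 6 against a mean of 187 in EZH2i libraries 1 to 5, and 409 CPM in DMSO library 6 against 217 in DMSO libraries 1 to 5. Mki67, a marker of cycling cells, had 691 CPM in EZH2i library 6 against a mean of 1005 in EZH2i libraries 1 to 5, and 978 CPM in DMSO library 6 against 1064 in DMSO libraries 1 to 5. The part of proliferation in the results for lipid genes was not tested.

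**Figure D5:**
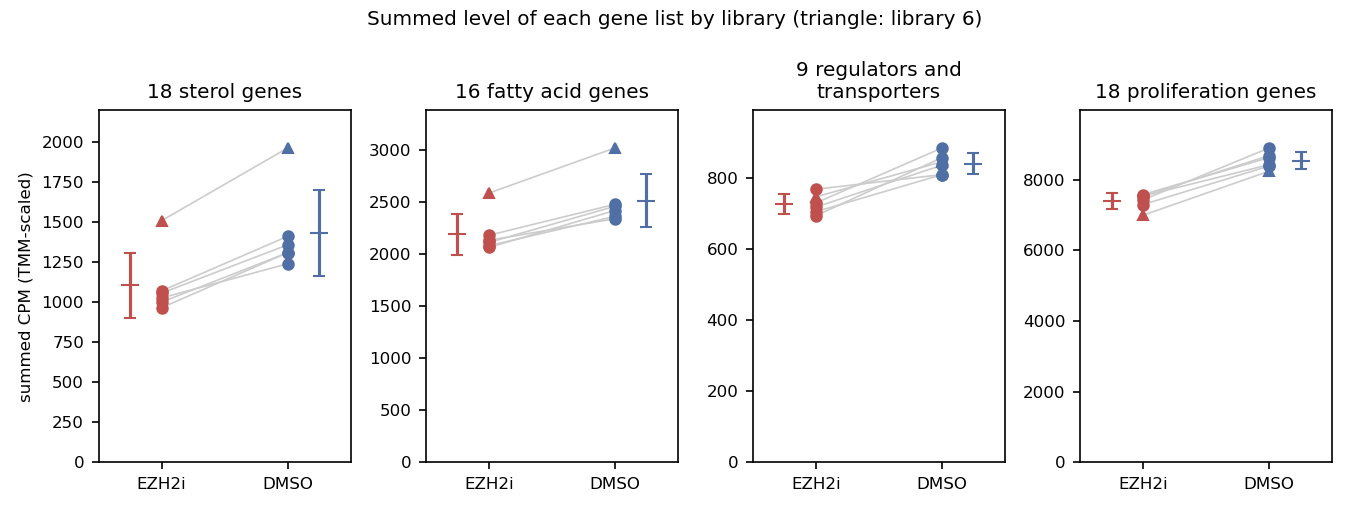
Summed CPM of the 18 sterol, 16 fatty acid, 9 regulator and transporter and 18 proliferation genes by library, EZH2i left of DMSO, with same-numbered libraries joined, triangles for library 6, and a bar of mean and SD beside each group (n = 6). The sterol sum is lower in EZH2i in each pair, with 1508 CPM in EZH2i and 1961 CPM in DMSO for number 6.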

How the data were processed

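RNA of splenic CD8+ T cells was compared between EZH2i (n = 6 libraries) and DMSO (n = 6 libraries), grouped by the treatment in the labels. The deposited tables, 1 per library, give unnormalised counts of reads for 24421 gene symbols. Per the submitters' processing notes, the tools named are TopHat2 2.1.1, featureCounts, SAMtools 1.9, Trimmomatic 0.38 and FastQC 0.11.7, and the build is mouse GRCm38 (mm10), with no role or order given. Annotation, strand setting and handling of multi-mapping reads were not given in the sources used here, so near-copies, overlapping genes and antisense partners are uncertain.

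In R 4.3.3 with edgeR 4.0.16, filterByExpr at its defaults kept 11727 genes, 43 of 43 listed genes among them. After TMM scaling, the two-sided quasi-likelihood test was run on a model of the group alone, with Benjamini-Hochberg adjustment and calls under 0.05. Each SE is the absolute log2 fold change over the square root of F. Positions and exon lengths are from GENCODE M21, and sequences from RefSeq. The members and lists were chosen with earlier results of these data known. All 43 members were named, and of each other list up to 4 called genes by size of change, or, with none called, the gene of smallest p.

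The meaning of the replicate numbers is not in the labels. After subtracting group means, same-numbered libraries correlated with r of 0.213, 0.445, 0.286, 0.527, 0.317 and 0.847 for numbers 1 to 6, each over 0.1, so pairing by number was accepted, from the data alone. Without number 6 the lowest r was 0.0371, so the pairing of numbers 1 to 5 is not settled. Same-numbered libraries were each other's best match for numbers 2, 4 and 6. For numbers 1 and 3 this held in 1 direction only, and for number 5 in neither. Replicates differed by more than sampling noise (chi-square over its degrees of freedom at least 4.89), so none was a duplicate. On simulated counts for this comparison (11727 genes) the test recovered 31 of 67 genes changed 1.5-fold, 54 of 67 changed 2-fold and 64 of 66 changed 4-fold, with 9 false calls. The simulated libraries were independent and held no shared shift of number 6. Alternatives were size factors of DESeq2 in edgeR, upper-quartile scaling, DESeq2 1.42.0, no filter, a stricter filter, the replicate block, limma-trend (limma 3.58.1), each library left out in turn, and both libraries numbered 6 left out.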

Additional observations from a re-analysis of the deposited data

Results flagged for a closer look

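A library was singled out where its gap to the nearest other library of its group was large for a group of 6. Chance singles out about 1 in 20 groups. Of the 86 sets of 6 values (43 genes in 2 groups), 41 had such a library, or 47.7%, against 29.3% of the 23454 sets of all tested genes. It was library 6 in 41 of 41, and in 92.1% of those sets of all tested genes. The sets share the same 12 libraries and are not independent. Library 6 was far above the others in both groups for Acat2 with 31.3 CPM in EZH2i (16.4 to 21.2 in the other 5) and 39.4 CPM in DMSO (25.4 to 28.0) and Hmgcs1 with 239 CPM in EZH2i (149 to 176 in the other 5) and 321 CPM in DMSO (202 to 221). High in both groups were also Idi1 with 172 CPM in EZH2i (83.1 to 98.9 in the other 5) and 255 CPM in DMSO (122 to 138) and Sqle with 135 CPM in EZH2i (55.3 to 66.0 in the other 5) and 158 CPM in DMSO (78.9 to 93.7). It was likewise high for Lss with 76.8 CPM in EZH2i (25.6 to 34.4 in the other 5) and 81.8 CPM in DMSO (34.0 to 41.8) and Cyp51 with 186 CPM in EZH2i (94.6 to 119.6 in the other 5) and 274 CPM in DMSO (141 to 167). The same held for Msmo1 with 68.3 CPM in EZH2i (37.6 to 45.9 in the other 5) and 85.5 CPM in DMSO (51.0 to 62.4) and Hsd17b7 with 28.2 CPM in EZH2i (9.42 to 12.6 in the other 5) and 33.0 CPM in DMSO (12.3 to 17.3). Library 6 was far above the others in both groups for Acly with 352 CPM in EZH2i (239 to 256 in the other 5) and 401 CPM in DMSO (294 to 318) and Acaca with 149 CPM in EZH2i (48.9 to 58.5 in the other 5) and 134 CPM in DMSO (60.3 to 70.1). High in both groups were also Fasn with 420.3 CPM in EZH2i (85.8 to 113 in the other 5) and 420.4 CPM in DMSO (132 to 178) and Elovl6 with 269 CPM in EZH2i (86.1 to 106 in the other 5) and 164 CPM in DMSO (82.6 to 93.0). It was likewise high for Insig1 with 82.3 CPM in EZH2i (48.8 to 59.5 in the other 5) and 84.7 CPM in DMSO (65.9 to 71.6) and Scap with 116 CPM in EZH2i (73.5 to 89.2 in the other 5) and 122 CPM in DMSO (82.9 to 97.3). In 1 group alone library 6 was far above for Fdps with 193 CPM in EZH2i (113 to 138 in the other 5), Sc5d with 92.1 CPM in DMSO (57.9 to 65.3 in the other 5) and Dhcr7 with 52.5 CPM in EZH2i (38.1 to 43.2 in the other 5). Also above in 1 group was Elovl1 with 95.9 CPM in EZH2i (69.1 to 75.5 in the other 5). Library 6 was far below the others in both groups for Acss2 with 14.4 CPM in EZH2i (52.3 to 59.3 in the other 5) and 19.7 CPM in DMSO (44.3 to 52.6) and Mylip with 9.44 CPM in EZH2i (18.01 to 21.8 in the other 5) and 11.2 CPM in DMSO (16.8 to 19.9). In 1 group alone library 6 was far below for Mvk with 24.2 CPM in DMSO (30.3 to 32.1 in the other 5), Acacb with 1.37 CPM in DMSO (1.95 to 2.26 in the other 5) and Fads1 with 60.8 CPM in EZH2i (74.1 to 81.1 in the other 5). Also below in 1 group were Elovl5 with 226 CPM in EZH2i (311 to 338 in the other 5) and Abcg1 with 36.1 CPM in EZH2i (75.4 to 90.5 in the other 5). The summed level of the 18 sterol genes was 1508 CPM in EZH2i library 6 (965 to 1070 in the other 5) and 1961 CPM in DMSO library 6 (1239 to 1410). That of the 16 fatty acid genes was 2586 CPM in EZH2i library 6 (2064 to 2181) and 3019 CPM in DMSO library 6 (2340 to 2478). What sets number 6 apart was not tested.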

How the results depend on the processing

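On simulated counts the test recovered 31 of 67 changes of 1.5-fold, so small changes were often missed there. Those counts were drawn independently, without the shift of library 6 seen in both groups, so the recovery in these data may differ. Depth was not varied. Calls without the block depend on library 6. The replicate number as a block rests on the data, mainly on number 6, and not on the labels. With it, calls were 2892 higher and 2849 lower over all genes, or 24.7% and 24.3% of those tested. Calls in the lists were 15 sterol genes lower, 4 fatty acid genes higher and 8 lower, 6 regulators lower, 35 of 68 other pathway genes and 14 proliferation genes. Over all tested genes 49.0% were called in either direction with the block. Without it 19.3% were, and 9 of the 68 other pathway genes. Without both libraries numbered 6 the same counts were 2815, 2455, 14, 5, 8, 5, 30 and 14. Of the genes tested there 23.9% were called higher and 20.9% lower, or 44.8% in either direction. The block or this exclusion lost none of the 11 member calls. Upper-quartile scaling gave 347 genes lower in all (2.96% of those tested), 1 sterol gene and 0 regulators. It raised the share of calls that were higher to 83.8% from 68.7%, against 50.4% with the block. DESeq2 gave 1125 genes lower (9.69%), 7 sterol genes lower and 15 of 67 other pathway genes, against 24.8% of all genes called there. The stricter filter gave 1 fatty acid gene higher, as Fads3 was not tested there. Leaving out 1 library gave 1297 to 2262 genes higher, 435 to 1817 lower, 2 to 14 sterol genes lower, 0 to 0 higher, 2 to 3 fatty acid genes higher, 4 to 7 lower, 2 to 5 regulators lower, 4 to 21 other pathway genes and 5 to 10 proliferation genes, with the highest counts without EZH2i library 6. In these fits 11.1% to 19.2% of all tested genes were called higher and 3.71% to 15.4% lower. Of the 11 called members 7 were called under every alternative in which they were tested: Ebp, Elovl7, Fads1, Fads2, Fads3, Scd1 and Scd2. Fads3 passed the main filter through the EZH2i libraries alone, so it had to differ and its calls are no support. The sign turned for genes that were not called. Leaving out 1 library, the log2 fold change ran from -0.136 to 0.0065 for Mvk, -0.4966 to 0.1132 for Acaca, -0.053 to 0.5209 for Elovl6, -0.0063 to 0.0568 for Acsl4, -0.0096 to 0.0882 for Insig2 and -0.0122 to 0.2155 for Mylip, and with upper-quartile scaling that of Mvk was 0.0078. The cause was not tested.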
